A study of Saccharomyces cerevisiae with 78 samples.

Results

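The genes described here are the subunits of the yeast proteasome, together with UMP1 and RPN4. They were chosen by name: 34 locus tags, covering 14 genes of the 20S core (SCL1, PRE1 to PRE10, PUP1 to PUP3), 18 of the 19S regulatory particle (RPN1 to RPN3, RPN5 to RPN13, RPT1 to RPT6), UMP1 and RPN4. A row of the count tables was found for 33 of the 34, among 5229 gene rows in all, and RPN2 (YIL075C) was not analysed here. No joined row, which sums several genes, holds any of the 33, so each has a count of its own. All 33 passed the filter on low counts, and the smallest count of any of them in any library was 1246.

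The proteasome is the protease that degrades proteins tagged with ubiquitin. Its barrel-shaped 20S core is built of rings of alpha and beta subunits, with the cutting sites inside the beta rings. The 19S particle caps the barrel: its base, with a ring of ATPases, unfolds and threads the substrate, and its lid removes ubiquitin. Ump1 is a chaperone that sits inside the core while it is assembled and is then the first protein it degrades. Rpn4 is the transcription factor that drives the subunit genes through an upstream element called PACE (proteasome-associated control element). Rpn4 is itself a very short-lived substrate of the proteasome, so that the genes and their product form a feedback loop.

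The study measured polyadenylated RNA in BY4742, a haploid laboratory strain of the alpha mating type, carrying plasmids with fusion genes. The 25 fusion-gene clones, named by plate codes such as M491-C07, were set beside 1 control with the plasmid p416-GAL1, in which the GAL1 promoter drives no insert. All 26 groups were grown in galactose medium without uracil (SDCGal-Ura) and collected in mid-logarithmic growth, with 3 biological replicates each, which the design text describes as transformants. The labels do not say which genes are fused in which clone. Every group shares the strain, the medium and the plasmid selection, and the control differs from the clones by having no fusion gene. The series' design text speaks of 22 clones and the labels hold 25, all of which were used.

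The upstream element is shown first, since its letters are shared by most of the 33 genes. The sequences are from RefSeq's R64 reference and are printed in the direction of the gene's own strand, with 15 bases on each side of the element in lower case and the element itself in capitals. PACE was searched as GGTGGCAAA on both strands of the 300 bases before the start codon, and TTTGCCACC is the same element on the opposite strand. RPN5 and RPT4 were higher than the control in more clones than any of the other 31 genes, and PRE1 had the largest single change. PRE9 carries the element but was called in 2 clones. Its median log2 fold change over the clones was 0.168, beside 0.183 for RPT4, so a count of clones is not a measure of size.
RPN5, chrIV:190771-190809, + strand: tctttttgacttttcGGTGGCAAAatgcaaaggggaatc
RPT4, chrXV:813797-813835, - strand: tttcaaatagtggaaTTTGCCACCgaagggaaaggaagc
PRE1, chrV:177678-177716, + strand: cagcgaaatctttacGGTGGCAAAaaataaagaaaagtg
PRE9, chrVII:761218-761256, + strand: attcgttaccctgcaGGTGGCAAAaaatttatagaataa

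The exact element lies in the windows of 26 of the 33 genes (78.8%) and of 1.22% of the 6007 windows of protein-coding genes in the reference. It was found in 12 of 14 core genes and in 14 of the 17 genes of the 19S particle that have a count row. Its first base lies 84 to 183 bases before the start codon, with a median of 122, and it reads in the gene's own direction in 18 genes and in the opposite direction in 8. Of the 7 genes without an exact match, 5 hold a copy with 1 letter changed, shown here because RPN13 and RPN8 were called in the fewest clones of their classes. Positions are counted from 1 at the 5′ end of GGTGGCAAA, in the element's own direction. The change is G1A in PRE5, PUP1 and RPN8 and A7G in RPN10 and RPN13. An exact or 1-letter match is found in 7.72% of all windows.
PRE5, chrXIII:901547-901585, + strand: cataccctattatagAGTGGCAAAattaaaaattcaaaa
PUP1, chrXV:631886-631924, - strand: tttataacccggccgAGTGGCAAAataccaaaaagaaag
RPN8, chrXV:817080-817118, - strand: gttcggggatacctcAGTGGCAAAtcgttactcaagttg
RPN10, chrVIII:498963-499001, + strand: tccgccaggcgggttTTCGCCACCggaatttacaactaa
RPN13, chrXII:965651-965689, - strand: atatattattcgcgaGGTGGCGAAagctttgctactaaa
In the windows of UMP1 and RPN4 neither form was found, which says only that these letters are absent from those 300 bases. RPN4 is known to be regulated by Pdr1 and Pdr3, Yap1 and the heat shock factor Hsf1. Their sites were searched on both strands as TCCGCGGA, TTACTAA and, for Hsf1, the triplets GAA, TTC and GAA with 2 free bases between neighbours. They were found in 0, 4 and 1 of the 33 windows, against 0.2%, 7.84% and 0.866% of all windows. The 4 windows with TTACTAA are those of PRE5, RPT2, RPN7 and RPN8. In the window of RPN4 only the Hsf1 triplets were found, with their first base 21 bases before the start codon. Bases farther than 300 from the start codon were not searched, so sites of these factors beyond the window would be missed. A match is a run of letters and not a measured binding site.

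Each library held between 10415284 and 18048675 gene counts (median 13540273), and the 33 genes together took 0.732% to 0.982% of them. The library names place replicates 1 and 2 in an earlier batch, called the first set here, and replicate 3 in a resubmitted set, and the fits carry a term for the set. The library names disagree with the labels in part: that of control replicate 3 carries the plasmid code PP2061, and those of M492-E01 replicates 1 and 2 carry M585-B08. The alpha-specific genes STE3 and MF(ALPHA)1 were present in every library (STE3 at 126 to 282 CPM, read counts scaled to library size). The a-specific genes STE2 and BAR1 lay at 15.8 to 27.0 and 8.38 to 14.6 CPM, and STE6, another a-specific gene, at 46.2 to 69.1 CPM. Of the 7 mating-type genes tested, 2 alpha-specific ones were lower in the mean of the clones than in the control. They were MF(ALPHA)1 (log2 fold change -0.68, SE 0.136, adjusted p = 0.000825) and STE3 (-0.36, SE 0.0736, adjusted p = 0.00111, edgeR), called lower in 15 and 13 clones. The other 5, MF(ALPHA)2 (-0.28, adjusted p = 0.144), SAG1 (-0.25, adjusted p = 0.206), STE2 (0.03), BAR1 (0.04) and STE6 (0.05), did not pass the test. The part of these genes' differences in the results on the proteasome genes was not tested.

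Levels of different genes were compared as CPM per kilobase of coding length. In the control, PUP3, a beta subunit, had the highest level of the 33 genes and RPN9, a lid subunit, the lowest. PUP3 had 506.9 ± 23.0 (SD, n = 3) and RPN9 101 ± 6.13 (SD, n = 3) CPM per kilobase. The median core gene was at 297 and the median 19S gene at 192 CPM per kilobase. Within a library, the median core gene was 1.40 to 1.85 times the median 19S gene, with a median of 1.61 over the 78 libraries. By class, the control medians in CPM per kilobase were 289.9 for the alpha ring, 322 for the beta ring, 197 for the ATPases, 213 for the other base subunits and 180.2 for the lid. RPN13, a ubiquitin receptor of the base, stood apart from its class at 357 CPM per kilobase. The control values of PUP3, at 505, 485 and 531 CPM per kilobase, lay above those of PRE1, next in order, at 347, 352 and 426. Those of PRE1 overlapped those of RPN13, the next below, at 367, 342 and 361.

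**Figure D1:**
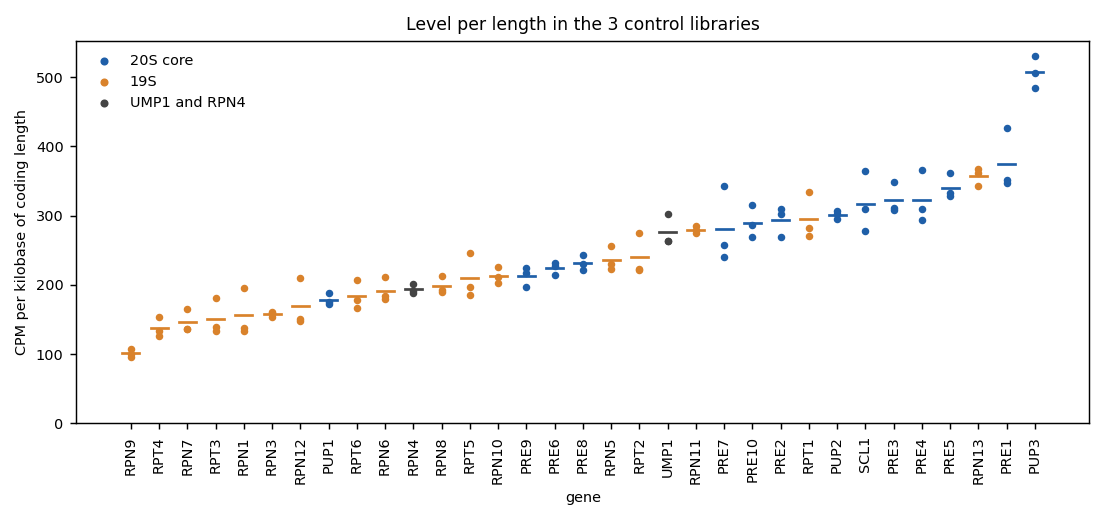
Level of each gene in the 3 control libraries, in CPM per kilobase of coding length. Points are libraries and bars their means. Genes are ordered by mean, from RPN9 at 101 to PUP3 at 506.9, and genes of the 20S core (blue) lie mostly to the right of the 19S genes (orange).

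The main comparison sets each clone against the control plasmid. Proteasome transcripts were higher in many clones and lower in none: of 825 pairs of a gene and a clone, 358 (43.4%) were called higher and 0 lower at an adjusted p below 0.05 (edgeR's quasi-likelihood test, Benjamini-Hochberg over 5212 genes within each clone). Over all genes tested, 5.87% of pairs were called higher and 4.76% lower. DESeq2 also called 0 pairs lower, and at an unadjusted p below 0.05 edgeR called 0. In 14 clones at least 17 of the 33 genes were higher, and in 6 clones none was. The changes were small, with log2 fold changes from -0.15 to 0.54, and the median of the 33 genes was above 0 in 24 of 25 clones. All 25 comparisons share the same 3 control libraries. Leaving out control replicate 1 gave 230 pairs and control replicate 2 gave 221, while leaving out control replicate 3 gave 427. The count of clones with at least 17 genes higher was then 6, 8 and 14. Without a term for the library set 125 pairs were called higher, and in the first set alone 542. The shares of 5.87% and 4.76% are those of the main fit, and shares over all genes under these alternatives are not given here. In bulk RNA, a change in RNA per cell and a change in the mix of cells cannot be told apart.

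**Figure D2:**
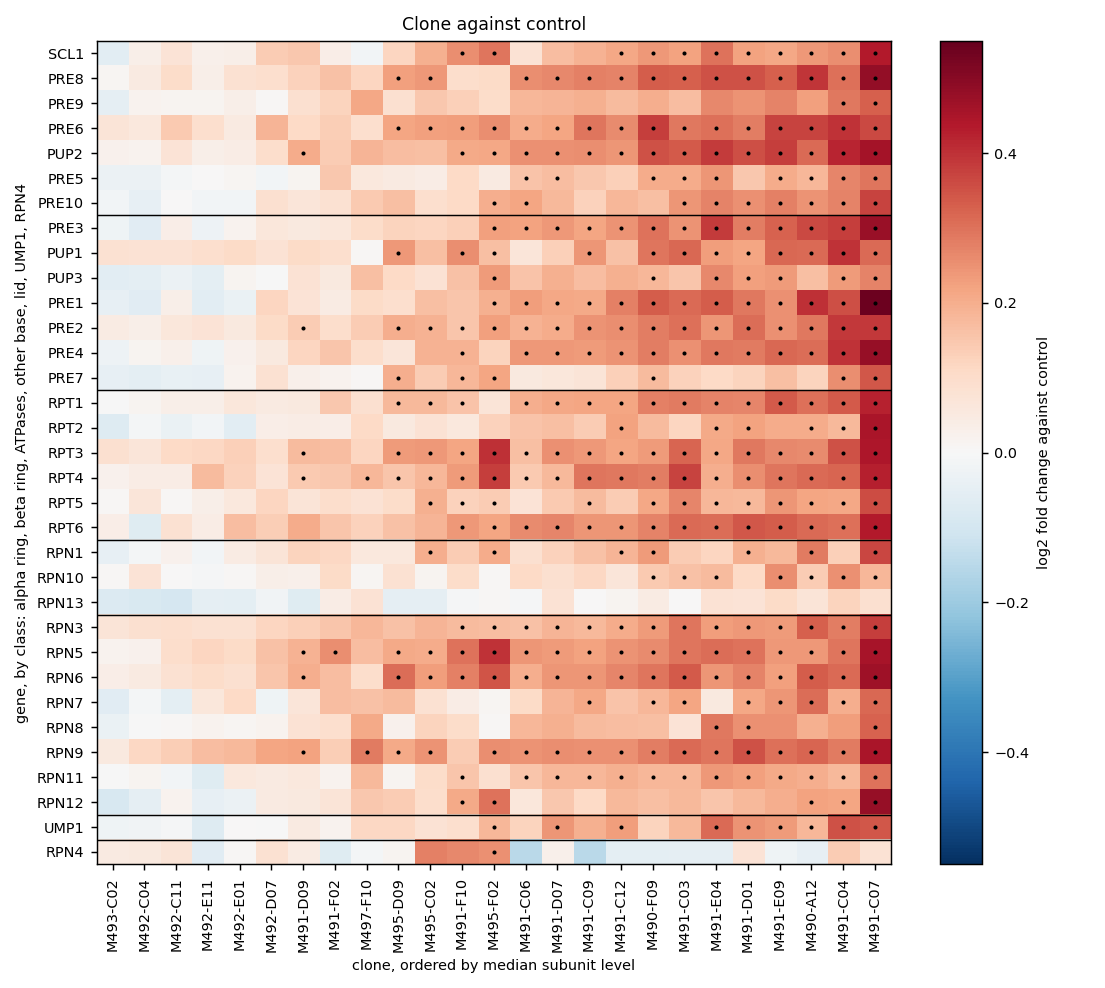
Log2 fold change of each of 33 genes (rows, by class) in each of 25 clones (columns) against the control, on a colour scale centred on 0. Dots mark an adjusted p below 0.05. The 6 columns at the left carry no dot, and that of M491-C07 at the right carries 31.

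The clones were ordered by how many of the 33 genes were higher. M491-C07 had 31, against 12.1% of all genes called higher in that clone, with a median log2 fold change of 0.38, or 1.30-fold. M491-C04 followed with 29 (background 8.12%, median 0.29), M490-A12 with 27 (11.9%, 0.26), and M491-D01 and M491-E04 with 26 each (6.79% and 4.57%, medians 0.25 and 0.24). M491-E09 had 25 against a background of 2.65%. That count fell to 11 without its own replicate 3, and to 15 without control replicate 1 or 2. The count of M491-D01 fell to 16 without control replicate 1, and that of M491-E04 to 17 without control replicate 2. For M491-C07 it stayed between 29 and 31 whichever of the 3 control or 3 clone libraries was left out. The 6 clones with none higher were M492-C04, M492-C11, M492-D07, M492-E01, M492-E11 and M493-C02, where 2.3%, 0.0384%, 0.0192%, 2.49%, 0.691% and 0.0192% of all genes were. By edgeR at an unadjusted p below 0.05, 21 of the 198 pairs of those clones were higher, and DESeq2 called 1 gene higher in M492-E11 and none in the other 5. Their medians lay between -0.003 and 0.08 on the log2 scale, and in M493-C02 15 of 33 genes had a positive value.

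**Figure D3:**
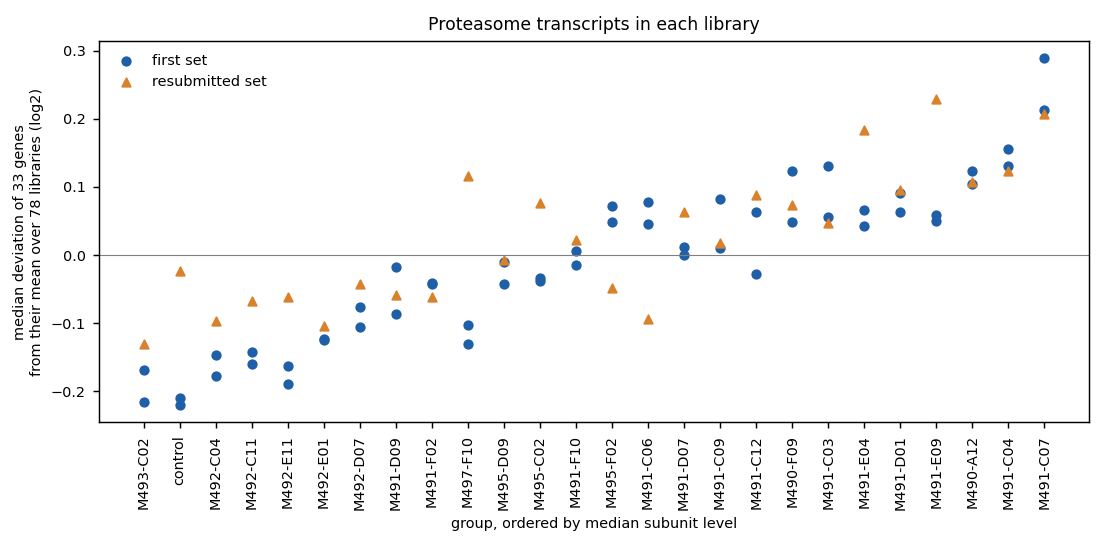
Median deviation of the 33 genes from their mean over 78 libraries (log2 CPM), for each library, with groups ordered by median subunit level. Circles are the first set and triangles the resubmitted set. The first-set control libraries, at -0.209 and -0.22, are among the 3 lowest, with M493-C02 replicate 1 at -0.215 between them, and the control library of the resubmitted set lies at -0.02.

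In each class, values by library are given for the genes with the largest and the smallest F statistic in a test of any difference among the 25 clones. F sets the differences against the spread between replicates, so its order is not that of the size of the differences. The alpha ring forms the outer gate of the core. Of its 7 genes, PRE6 was higher in 16 clones, PUP2 in 15, PRE8 in 14, SCL1 in 11, PRE5 and PRE10 in 9 each and PRE9 in 2. Over the class, 76 of 175 pairs (43.4%) were higher. PRE8 (YML092C) had the largest F of the class. Its level was 167, 173 and 183 CPM in the control, 233, 256 and 241 in M491-C07 and 168, 176 and 183 in M493-C02. The M491-C07 libraries lay above all control libraries, while the range of M493-C02 overlapped that of the control. The log2 fold change of M491-C07 was 0.48 (SE 0.0486, adjusted p = 1.68e-10, edgeR). Over the clones, PRE8 ranged from 168 to 256 CPM in the 50 first-set libraries and from 183 to 242 in the 25 resubmitted ones. PRE9 (YGR135W), the alpha subunit that the core can be assembled without, had the smallest F of its class. It had 174, 153 and 169 CPM in the control and 215, 220.0 and 189.9 in M491-C07. The values did not overlap, and the log2 fold change was 0.33 (SE 0.0877, adjusted p = 0.00397, edgeR).

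The beta ring holds the proteolytic subunits PRE3 (caspase-like), PUP1 (trypsin-like) and PRE2 (chymotrypsin-like). PRE2 was higher in 17 clones, PRE1, PRE3 and PRE4 in 13 each, PUP1 in 12, PUP3 in 7 and PRE7 in 6, so 81 of 175 pairs (46.3%) in all. PRE1 (YER012W) had the largest change of any member. Its level was 207, 209.9 and 254 CPM in the control, 307, 317 and 347 in M491-C07 and 211, 212 and 226 in M493-C02. The lowest M491-C07 library was above the highest control library, and the fold was 1.45 (log2 0.54, SE 0.0581, adjusted p = 7.56e-10, edgeR). PUP3 (YER094C) had the smallest F of the ring. It had 312, 299.6 and 328 CPM in the control and 394, 419 and 331 in M491-C07, where the resubmitted library lay just above the highest control value. Its log2 fold change was 0.27 (SE 0.0644, adjusted p = 0.00117, edgeR).

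The 6 ATPases of the base, RPT1 to RPT6, had 82 of 150 pairs (54.7%) higher. RPT4 was higher in 18 clones, RPT3 in 17, RPT1 in 15, RPT6 in 14, RPT5 in 12 and RPT2 in 6. RPT1 (YKL145W) had the largest F of the ATPases. It had 396, 379 and 469 CPM in the control, 539, 566 and 555 in M491-C07 and 376, 413 and 452 in M493-C02. The M491-C07 values lay above all 3 of the control (log2 fold change 0.42, SE 0.0481, adjusted p = 2.7e-09, edgeR). RPT6 (YGL048C) had the smallest F of the ATPases, though its clone means spanned 0.497 on the log2 scale, against 0.424 for RPT1. It had 217, 203 and 253 CPM in the control and 290.0, 316 and 297 in M491-C07, again without overlap (log2 fold change 0.43, SE 0.0741, adjusted p = 1.42e-05, edgeR).

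Of the 3 other base genes with a count row, 14 of 75 pairs (18.7%) were higher. RPN1, a large scaffold that also binds ubiquitin shuttles, and RPN10, a ubiquitin receptor, were higher in 7 clones each, and RPN13 in 0, also at an unadjusted p below 0.05 (edgeR). RPN1 (YHR027C) had 398, 411 and 584 CPM in the control and 531, 583 and 659 in M491-C07. The resubmitted library was the highest in both groups and the groups overlapped, while within each set M491-C07 was above the control (log2 fold change 0.37, SE 0.0562, adjusted p = 2.07e-06, edgeR). RPN13 (YLR421C) had 173, 161 and 170.0 CPM in the control, 197, 194 and 149.7 in M491-C07 and 161, 167 and 151 in M493-C02. In M491-C07 it was above the control in the first set and below it in the resubmitted set, and the log2 fold change of 0.09 did not pass the test (SE 0.0716, adjusted p = 0.414, edgeR). Over the 25 clones its log2 fold change ran from -0.09 to 0.12.

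In the lid, 95 of 200 pairs (47.5%) were higher. RPN5, a scaffold subunit, was higher in 18 clones, RPN6 and RPN9 in 17 each, RPN3 in 14, RPN11, the deubiquitinating enzyme of the lid, in 13, RPN7 in 8, RPN12 in 5 and RPN8 in 3. RPN6 (YDL097C), which braces the lid against the core, had the largest F of the lid. Its clone means spanned 0.427 on the log2 scale, against 0.565 for RPN12. It had 235, 239 and 275 CPM in the control, 330.2, 348 and 355 in M491-C07 and 243, 241 and 287 in M493-C02. All 50 first-set clone libraries were above both first-set control libraries, and all 25 resubmitted ones above the control library of that set. In M491-C07 the log2 fold change was 0.47 (SE 0.0585, adjusted p = 2.58e-08, edgeR). RPN8 (YOR261C), the partner of RPN11, had the smallest F of the lid. It had 217, 193 and 196 CPM in the control and 286, 281 and 200.1 in M491-C07, so that the resubmitted library lay among the controls (log2 fold change 0.32, SE 0.0856, adjusted p = 0.00387, edgeR). That call was lost without control replicate 2 (adjusted p = 0.0578, edgeR).

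UMP1 (YBR173C), the assembly chaperone, had a profile like that of the subunits. It was higher in 9 clones and lower in none. Its level was 118, 118 and 135 CPM in the control, 158, 169 and 144 in M491-C07, 156, 159 and 159 in M491-C04 and 120, 126 and 119 in M493-C02. The clones M491-C07 and M491-C04 lay above all 3 control values. Their log2 fold changes were 0.34 (SE 0.0652, adjusted p = 7.63e-05) and 0.35 (SE 0.0654, adjusted p = 0.000126, edgeR). Over 26 group means, UMP1 correlated with the median subunit at r = 0.913.

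RPN4 (YDL020C), the regulator, had another profile. Its level was 305, 300.4 and 321 CPM in the control and 357, 330.3 and 296 in M491-C07, where the values overlapped and the log2 fold change was 0.08 (SE 0.106, adjusted p = 0.641, edgeR). Against the control it was called in 1 clone, M495-F02, with 395, 425 and 289 CPM and 0.25 on the log2 scale (SE 0.106, adjusted p = 0.0442). The resubmitted library of M495-F02 lay below all 3 control values. The call was lost without its replicate 1 (0.22, adjusted p = 0.133) or 2 (0.16, adjusted p = 0.276), and without control replicate 1 (0.22, adjusted p = 0.131) or 2 (0.21, adjusted p = 0.15, edgeR). Larger values in M495-C02 (log2 0.28, adjusted p = 0.182) and M491-F10 (0.26, adjusted p = 0.069) did not pass the test. Against the mean of the other 24 clones, these 3 were called higher, where 3.05% (M495-C02), 10% (M491-F10) and 31% (M495-F02) of all genes were. M495-C02, with 363, 395 and 365 CPM, stood 0.26 higher on the log2 scale (SE 0.0742, adjusted p = 0.027). M491-F10, with 376, 378 and 360 CPM, had 0.24 (SE 0.0744, adjusted p = 0.0152), and M495-F02 had 0.23 (SE 0.0745, adjusted p = 0.00663, edgeR). Leaving out any 1 of the 3 libraries ended the call in M495-C02 (adjusted p 0.0523 to 0.179) and in M491-F10 (0.0671 to 0.0937). In M495-F02 it ended without replicate 1 (adjusted p = 0.066) or 2 (adjusted p = 0.199), and held without replicate 3 (adjusted p = 0.0004). In both M495-C02 and M491-F10 all 3 libraries were above all 3 of the control. Subunit levels of those clones were in the middle of the range, with 11, 17 and 22 genes higher than the control in M495-C02, M491-F10 and M495-F02, against 1.09%, 11.5% and 25.6% of all genes. Leaving out 1 control library or 1 library of the clone moved these counts to 2 to 13, 7 to 25 and 15 to 25.

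**Figure D4:**
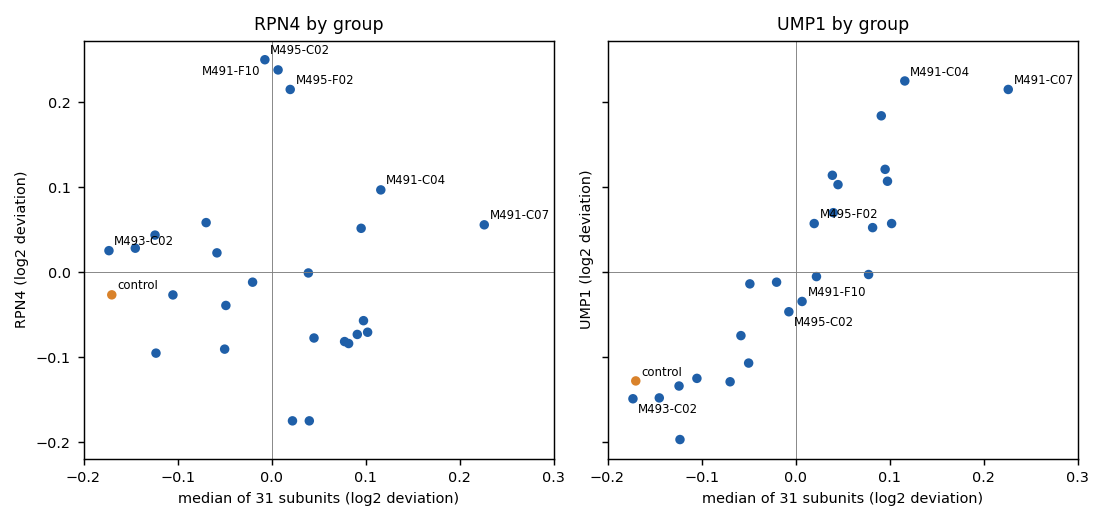
RPN4 (left) and UMP1 (right) against the median of 31 subunits, as deviations of group means from the mean of all 26 groups (log2 CPM). Each point is a group of 3 libraries and the control is orange. UMP1 runs along the diagonal, while the 3 highest RPN4 groups, M495-C02, M491-F10 and M495-F02, lie near 0 on the subunit axis.

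The subunits had like profiles over the groups. As a description over 26 group means that share libraries, sets and scaling, each subunit correlated with the median of the other subunits at r = 0.77 (RPN13) to 0.968 (PUP2), with a median of 0.908. RPN4 had r = -0.03 with the median subunit. That value was 0.291 in the first set alone and -0.142 in the resubmitted set. After group and set were removed, the remaining library-to-library deviations of subunits still correlated at a median r of 0.697 over 78 libraries, and those of RPN4 with the median subunit at 0.639. Between the groups the profile of RPN4 was unlike that of the subunits. The remaining deviations still hold any difference of a clone effect between the sets. No r over all genes is set beside 0.697 and 0.639, so whether these are particular to the proteasome genes was not tested.

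The mean of the 25 clones was then set against the control, to show what the shared control brings to each comparison. Of the 33 genes, 19 were higher and 0 lower (edgeR), against 3.7% of all genes higher and 2.63% lower, and the median log2 difference was 0.16 against -0.003 over all genes. At an unadjusted p below 0.05, 0 were lower. RPN9 had the largest difference (0.24, SE 0.049, adjusted p = 0.00112), and PRE6, PUP2, RPN5, RPN6, PRE8 and RPT3 followed at 0.22 each. RPN13 (0.01, adjusted p = 0.938) and RPN4 (0.03, adjusted p = 0.876) were nearest to 0. For 12 of the 33 genes the mean of the control was below that of every clone. That count was 12 without control replicate 1, 8 without control replicate 2 and 28 without control replicate 3. The share of all genes with this order was not computed, so these counts have no background beside them.

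The difference between clones and control was unlike in the first and the resubmitted set. In the first set none of 50 clone libraries had a median of the 33 genes below both controls, while in the resubmitted set 10 of 25 lay below the control library. The median log2 fold change of the clone was larger in the first set in 23 of 25 clones. It was above 0 in every clone in the first set and below 0 in 9 clones in the resubmitted set. For M491-C07 it was 0.47 and 0.23 (first set, then resubmitted set), for M491-C04 0.35 and 0.14 and for M491-E09 0.25 and 0.27. In a fit with group, set and their interaction, 13 of the 33 genes had a smaller mean clone effect in the resubmitted set and 0 a larger one, against 11.6% and 8.6% of all genes. RPN12, a lid subunit, changed most, from 0.26 to -0.12 (difference -0.39). RPN6 kept 0.22 in both sets. At an unadjusted p below 0.05, 0 were larger in the resubmitted set (edgeR). The interaction rests on 1 control library in the resubmitted set. The set itself moved members both ways: 16 were higher and 13 lower in the resubmitted set, against 41.4% and 43.2% of all genes, with RPN1 at 0.38 and RPN8 at -0.28.

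Comparisons without the control asked whether the clones differ among themselves. Among the 25 clones 32 of 33 genes differed, where 83.6% of all genes did, and the exception was RPN13 (adjusted p = 0.0776, edgeR). The median member stood at the 81.9th percentile of the F statistic of all genes. The clone means of log2 CPM of a gene spanned 0.21 (RPN13) to 0.60 (PRE1), with a median of 0.40. M491-C07 was the highest clone for 26 genes, and M493-C02 the lowest for 17.

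Against the mean of the other 24 clones, 105 pairs were higher and 117 lower, against 6.77% and 6.44% of all pairs of a gene and a clone. The high side was led by M491-C07, with 30 genes higher (background 9.55%) and a median log2 difference of 0.23. M491-C04 had 15 genes higher (7.16%), M490-A12 13 (9.88%), M491-E04 12 (8.06%) and M491-E09 8 (5.91%), with medians of 0.11, 0.09, 0.09 and 0.10. The low side was led by M493-C02, with 28 genes lower (background 8.96%) and a median of -0.18. Without its own replicate 1, 12 genes were lower in M493-C02, and without its replicate 2 or 3, 21 and 23. M492-C04 had 25 lower (14%), M492-E11 22 (9.5%), M492-E01 15 (6.16%) and M492-C11 7 (0.902%), with medians of -0.16, -0.14, -0.12 and -0.14. PRE1 fell by 0.24 in M493-C02 (SE 0.0431, adjusted p = 0.000147) and by 0.25 in M492-C04 (SE 0.0431, adjusted p = 6.95e-06, edgeR). In M495-F02, 9 of the 33 genes were higher and 4 lower, against 31% and 29.4% of all genes. Clones with like codes share plate rows in the first set. The median deviation of clone libraries was 0.12 in row A, 0.03 in row B, -0.06 in row C, -0.08 in row D and -0.12 in row E, so that row and clone cannot be told apart. The control sat in row E of the first set beside M497-F10, whose own 2 first-set libraries lay at -0.10 and -0.13. In the resubmitted set the median deviation was 0.08 in row A and -0.05 in row B. Row C of that set held M497-F10 at 0.116 and the control at -0.023.

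Other genes of the pathway were read from a list of 36, of which 32 had a row of their own and were tested. Against the control 157 of 800 pairs (19.6%) were higher and 6 lower, where 5.87% and 4.76% of all pairs were. In the mean of the clones 7 of the 32 genes were higher and 0 lower (edgeR), with 1 lower at an unadjusted p below 0.05, where 3.7% and 2.63% of all genes were called. Those 7 were ECM29, UFD1, CDC48, CUZ1, PBA1, HUL5 and YAP1. The 1 lower at an unadjusted p was POC4, listed as an assembly gene like PBA1 (log2 -0.16, SE 0.0626, adjusted p = 0.107, edgeR). POC4 was lower in 4 clones and higher in 0, while PBA1 was higher in 9 and lower in 0. ECM29, which tethers the core to the 19S particle, rose by 0.23 on the log2 scale in that mean (SE 0.0502, adjusted p = 0.00289) and was higher in 13 clones. CDC48, the ATPase that extracts ubiquitinated proteins, rose by 0.17 (SE 0.0433, adjusted p = 0.0101) and was higher in 14, and its partner UFD1 rose by 0.17 (SE 0.0443, adjusted p = 0.00939, edgeR) and was higher in 12. UBA1, the ubiquitin-activating enzyme, was higher in 6 clones, and RPN14, an assembly chaperone of the base, in 1 and lower in 1. Of the genes known to act on Rpn4, MUB1 and UBR2, the ubiquitin ligase pair that marks it for degradation, were higher in 9 and 0 clones (edgeR), with UBR2 higher in 2 at an unadjusted p below 0.05 and lower in 1 at the adjusted one. RAD6, the conjugating enzyme of that pair, was higher in 1. Of the factors known to drive RPN4, YAP1 was higher in 10 clones, PDR3 in 4, HSF1 in 2 and PDR1 in 1. Among the clones 28 of the 32 differed, a share near the 83.6% of all genes.

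The 10 genes outside the 33 with the profile most like the median subunit over 26 group means were ECM29 (r = 0.933), CDC48 (0.932), YAP1 (0.921), OTU1 (0.916), CUZ1 (0.893), DSK2 (0.889), SBA1 (0.887), SGT2 (0.883), YBR062C (0.871) and MIX23 (0.862). Only the first 4 reached 0.9, and the median over all genes was -0.01. In the resubmitted set alone, YAP1 had 0.69, CUZ1 0.613 and DSK2 0.542, while CDC48 had 0.90 and SBA1 0.877. Of the 10, 5 hold an exact PACE in the window: ECM29, CDC48, YAP1, CUZ1 and SGT2. The windows of the leading pair are shown beside the subunits' own, with the same flanks and capitals.
ECM29, chrVIII:39938-39976, + strand: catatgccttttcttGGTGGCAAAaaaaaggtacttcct
CDC48, chrIV:238782-238820, - strand: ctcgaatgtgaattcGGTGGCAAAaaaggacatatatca

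Set beside the sequences, the 26 genes with an exact PACE were higher than the control in a median of 13 clones, from 2 (PRE9) to 18 (RPT4 and RPN5). The 7 without it were higher in a median of 7, from 0 (RPN13) to 12 (PUP1). The ranges overlapped, and no test was made of the 7 against the 26. A count of clones depends on the spread of a gene between libraries as well as on its change. The median log2 fold change over the clones was 0.168 for PRE9, 0.183 for RPT4, 0.164 for PUP1 and 0.0041 for RPN13. PUP1, PRE5 and RPN8, which share the G1A change, were higher in 12, 9 and 3 clones, and RPN10 and RPN13, which share A7G, in 7 and 0.

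**Figure D5:**
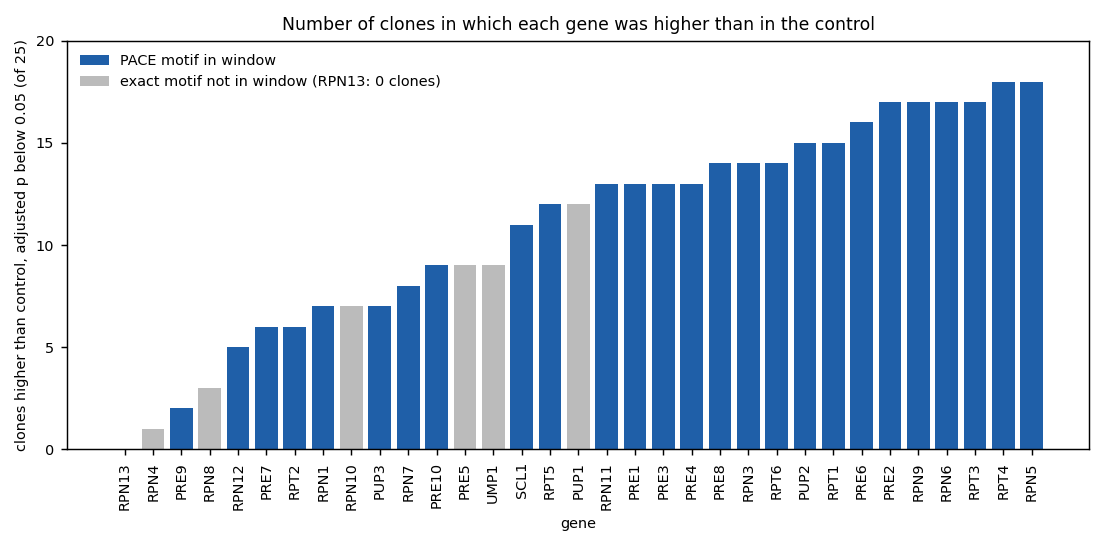
Number of the 25 clones in which each gene was higher than the control at an adjusted p below 0.05. Blue bars are genes with an exact PACE within 300 bases before the start codon and grey bars those without. The counts run from 0 for RPN13 to 18 for RPT4 and RPN5, and depend on the spread of each gene as well as on its change.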

How the data were processed

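The deposited tables hold whole-number read counts per gene, 1 table per library, made by the authors. Per the submitters' processing notes, fastp 0.23.1 trimmed the reads and removed UMI duplicates, STAR 2.5.2b mapped them, and featureCounts of Subread 1.5.2 counted them per gene. Whether counting used strand is not given in the sources used here. The notes name the R64 build, but the tables' rows lie on contigs of another assembly with the construct sequences added. R64 (RefSeq) was therefore used for names and upstream windows only, and no coordinate was taken from the tables. The row for reads with no gene name (median 0.886% of counts) and the UNDEF row (median 2.36%) were left out of library sizes and tests.

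Counts of all 78 libraries were fitted together in edgeR 4.0.16 (R 4.3.3) with TMM scaling, its expression filter by group (17 genes left out, 5212 tested) and terms for group and library set (51 residual degrees of freedom). The threshold was an adjusted p of 0.05 (Benjamini-Hochberg over all genes tested, within each comparison). The interaction fit had 26 residual degrees of freedom, all from replicates 1 and 2 of the first set. CPM values are the counts scaled by TMM library size. Log2 CPM used a prior count of 2. Profiles are group means of log2 CPM centred within each library set, and correlations between them carry no p. The fit was run on simulated counts with known changes in a single clone, where all genes were given the same dispersion. That run does not cover the differing spread of genes, or differences between library sets in a clone effect. Alternatives used DESeq2 1.42.0, limma 3.58.1 and other scalings, filters and sets of libraries, and those that leave out 1 library of a clone in the comparison with the other clones were chosen after seeing the data.

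The labels call the replicates biological and do not say that a number is shared between groups. The difference between replicates 1 and 2 correlated between groups at a median r of 0.01 (from -0.343 to 0.354 over 325 pairs of groups). A pairing by these numbers common to all groups was thus not seen. In 73 of the pairs r was over 0.1, and a pairing within some of the groups was not tested. Replicate 3 is the resubmitted set in every group. No first-set pair was a duplicate: the chi-square per gene between replicates 1 and 2 ran from 2.08 to 18.2.

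The 34 genes and all lists were chosen with earlier results of these data known. Values by library are given for RPN4, UMP1 and, in each subunit class, the genes with the highest and lowest F among clones. Genes outside the 33 are the 10 most alike in profile, the pathway genes with the highest F and those that act on RPN4. PBA1, HUL5 and POC4 were named after their values were seen.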

Additional observations from a re-analysis of the deposited data

Results flagged for a closer look

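The mean effect of the 25 clones against the control differed between the library sets for 13 genes, by the test of the interaction. Each difference is the log2 effect in the resubmitted set minus that in the first set. In the core it was -0.21 for PRE5, -0.28 for PRE10, -0.22 for PRE3, -0.29 for PUP3, -0.25 for PRE4 and -0.24 for PRE7. In the 19S particle it was -0.27 for RPT2, -0.16 for RPN1, -0.25 for RPN13, -0.23 for RPN8 and -0.39 for RPN12. For UMP1 it was -0.24 and for RPN4 -0.22. All 13 were smaller in the resubmitted set, whose control is 1 library, and the library name of that control carries another plasmid code than the first-set controls. The part of that library in the difference was not tested, since no other control of its set exists among the 78 libraries. The spread behind the test of the interaction is that of the first set alone.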

How the results depend on the processing

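Fold changes are small, and the comparisons with the control share 3 libraries. No fold change of a named gene that had passed the test changed sign under the alternatives that were run. The resubmitted set alone, with 1 library in each group, was not among them, so signs within that set were not tested. There the median log2 fold change of the proteasome genes was below 0 in 9 of 25 clones. RPN4 in M495-F02, which had passed, lay there at 181 CPM per kilobase, below the control library at 201. In the mean of the clones, RPN13 and RPN4, which had not passed, had values down to -0.06 and -0.02 with libraries left out. In each alternative 0 pairs were called lower than the control. The r of RPN4 went from -0.03 to 0.291 in the first set alone, and the median member of M493-C02 against the control from -0.003 to 0.03. Counts moved with the library set term and with single replicates. Shares over all genes are not given for the alternatives here and below. Their counts of proteasome genes thus have no background beside them, and the shares given above are those of the main fit. Without the term, 125 pairs were higher than the control (358 with it), in 1 clone at least 17 genes were higher, 7 genes were higher in the mean of the clones (19 with it), 21 differed among clones, and 37 pairs were higher and 31 lower against the other clones. The counts by clone were then 14 in M491-C04, 12 in M490-A12 and M495-F02, 9 in M491-D01, 8 in M490-F09, M491-C03 and M491-E04, 7 in M491-C06 and M491-E09, 4 in M491-C12, 2 in M491-C09, M491-F10, M495-C02 and M495-D09, 1 in M491-D07 and M497-F10 and 0 in M491-D09 and M491-F02. Against the other clones M491-C07 then had 19 genes higher and M493-C02 8 lower. In the first set alone 542 pairs were higher than the control, 32 genes were higher in the mean of the clones, and 181 pairs were higher and 203 lower against the other clones. The counts by clone were 31 in M491-D07, 30 in M491-C09, 28 in M491-F10, 24 in M491-F02 and M495-C02, 22 in M495-D09, 21 in M491-D09, 11 in M492-D07, 6 in M492-E01, 5 in M497-F10 and 3 in M492-C11. With plate rows of the resubmitted set as separate batches, 29 genes were higher in the mean of the clones and 5 in M497-F10, and 6 genes were lower in rows B and C than in the first set. DESeq2 called 1 gene in M492-E11. The cause of these shifts was not tested.

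With the replicate number as a block in place of the set term, 353 pairs were higher than the control and 18 genes in the mean of the clones. The block ended 1 call of a named gene, RPN1 in the mean of the clones (adjusted p = 0.0519, edgeR), which was also lost with RLE scaling (0.056) and with no filter on low counts (0.0549).

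Leaving out 1 library of the control or the clone, or 1 replicate of all groups, gave 61 to 427 pairs higher than the control, 1 to 14 clones with at least 17 genes higher, 0 to 28 genes higher in the mean of the clones, and 18 to 110 pairs higher and 8 to 125 lower against the other clones. By clone it gave 6 to 30 genes higher in M490-A12, 2 to 29 in M490-F09, 7 to 29 in M491-C03, 7 to 31 in M491-C04, 0 to 23 in M491-C06, 20 to 31 in M491-C07, 0 to 27 in M491-C09, 0 to 26 in M491-C12, 1 to 30 in M491-D01, 0 to 24 in M491-D07, 0 to 6 in M491-D09, 1 to 29 in M491-E04, 4 to 29 in M491-E09, 0 to 2 in M491-F02, 1 to 25 in M491-F10, 0 to 1 in M492-E01, 0 to 13 in M495-C02, 1 to 16 in M495-D09, 5 to 25 in M495-F02 and 0 to 3 in M497-F10. Against the other clones it gave 10 to 31 genes higher in M491-C07 and 1 to 29 lower in M493-C02. Leaving out replicate 1 or 2 of all groups leaves 1 first-set library in each.

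Without division by coding length, the median core gene was 1.01 times the median 19S gene in the control libraries. In the first set alone the median r of the subunits was 0.917 and that of ECM29 0.861 (0.925 as Spearman's rho). Each library held 10415284 or more counts, and each proteasome gene at least 1246 in any library. The share of counting error in the spread between libraries was not computed for these genes.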
